A study of Mus musculus with 2 samples.

Results

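The cells described here are called branchial muscle progenitors and are early muscle cells of mouse embryos at E13.5. The cells were chosen by their measured values, and the genes used do not separate branchial from somite-derived muscle. A filtered cell was a member with at least 1 UMI (a uniquely tagged RNA molecule) of at least 2 of the 5 markers Pax7, Myf5, Msc, Fgfr4 and Myod1, with fewer than 2 of the differentiation genes Myog, Mymk, Mymx, Myh3 and Mylpf, and with fewer than 2 of Cdh5, Pecam1, Epcam and Ptprc, which mark endothelium, epithelium and blood. The rule found 1007 progenitors among 6272 filtered cells, 480 of 2783 in the control library (17.2%, 15.9 to 18.7) and 527 of 3489 in the mutant library (15.1%, 13.9 to 16.3).

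Branchiomeric muscles, which move the jaw, face, pharynx and larynx, arise from the mesoderm of the pharyngeal arches and not from somites. Transcription factors such as Tbx1, Tcf21, Msc and Isl1 act there upstream of the myogenic factors Myf5 and Myod1, while Pax3, Lbx1 and Met mark muscle precursors that leave the somites, including those of the tongue. Pax7 marks progenitors that can self-renew, Notch signalling holds them undifferentiated, and Myog with the fusion proteins Mymk and Mymx accompanies exit from the cell cycle and the formation of muscle fibres.

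The study asked how an activating form of the PI3-kinase catalytic subunit acts in Isl1 lineages. The control group was Isl1-Cre;R26R-eYFP and the mutant group Isl1-Cre;R26R-eYFP;Pik3caH1047R, so both carried the Cre and the eYFP reporter, and Cre was driven in cells that express or once expressed Isl1. The mutant form is a transgene that Cre switches on by removing a stop cassette. Each group was 1 library of eYFP+ cells sorted from the upper bodies, above the liver, of 3 pooled embryos, labelled as pharyngeal arch tissue, and the mice were of mixed C57BL/6J and Crl:CD1(ICR) background. With 1 library per genotype no difference could be tested over replicates, so values are given with 95% intervals that cover counting error only. Genotype, pool and preparation cannot be told apart.

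The pools also differed in sex. Of the control progenitors, 471 held Xist but none of 4 Y-linked genes (female-like here) and 0 held a Y-linked gene without Xist (male-like). The mutant progenitors held 166 female-like cells (31.5%) and 306 male-like cells (58.1%). Depth was similar in both libraries, with a median of 23915 UMIs and 5496 genes per control progenitor and 21610 UMIs and 5308 genes per mutant progenitor. The summed progenitors gave 12267497 and 11985739 UMIs. Of all cell barcodes, 28 occurred in both libraries, and among them were 2 progenitors of each library.

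The sequences that the results below refer back to are the stretches of 250 bases upstream of the start sites of 4 genes, from RefSeq on GRCm38.p6. They are shown because they hold the letters of a motif discussed with the gene. For Kcne1l (chrX:142306199-142306448, minus strand) and Edn3 (chr2:174760369-174760618, plus strand), both at higher levels in the progenitors than in other cells, capitals mark CAGCTG, an E-box of the kind that myogenic bHLH factors bind. For Bnip3 (chr7:138909507-138909756, minus strand) and Car9 (chr4:43506776-43507025, plus strand), both HIF targets at higher levels in the mutant library, capitals mark ACGTG, the core of the HIF response element, or its reverse complement CACGT, or both where they overlap.
Kcne1l: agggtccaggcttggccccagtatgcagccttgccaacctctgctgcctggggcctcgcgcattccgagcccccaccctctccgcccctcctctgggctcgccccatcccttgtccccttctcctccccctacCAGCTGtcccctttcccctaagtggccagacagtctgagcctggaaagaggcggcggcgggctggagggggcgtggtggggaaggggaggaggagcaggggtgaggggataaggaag
Edn3: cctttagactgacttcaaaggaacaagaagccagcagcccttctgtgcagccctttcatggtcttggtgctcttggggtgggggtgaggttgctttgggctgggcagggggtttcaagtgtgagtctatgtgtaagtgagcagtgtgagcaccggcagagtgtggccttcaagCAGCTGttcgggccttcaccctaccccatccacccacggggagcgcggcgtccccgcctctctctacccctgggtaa
Bnip3: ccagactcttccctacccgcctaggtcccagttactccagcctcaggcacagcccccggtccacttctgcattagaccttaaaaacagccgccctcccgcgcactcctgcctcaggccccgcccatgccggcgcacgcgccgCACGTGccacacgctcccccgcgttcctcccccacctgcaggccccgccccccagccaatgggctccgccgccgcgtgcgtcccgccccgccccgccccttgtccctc
Car9: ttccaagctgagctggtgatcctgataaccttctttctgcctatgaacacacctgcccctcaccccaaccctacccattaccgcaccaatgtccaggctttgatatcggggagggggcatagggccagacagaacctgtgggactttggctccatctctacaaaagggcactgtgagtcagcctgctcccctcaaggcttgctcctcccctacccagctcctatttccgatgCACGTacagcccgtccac

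The genes of the rule were detected in the progenitors as follows, and since they chose the cells these values support nothing. Pax7 was detected in 82.5% of control and 76.5% of mutant progenitors, Myf5 in 67.5% and 65.8%, Msc in 90.6% and 88.2%, Fgfr4 in 94.2% and 82.0%, and Myod1 in 65.6% and 51.6%. All 5 markers were found together in 38.5% of control and 20.9% of mutant progenitors, the most frequent combination in both, followed in frequency by Pax7, Myf5, Msc and Fgfr4 without Myod1 (19.2% and 19.7%). Endothelial-type cells, which should lack these genes, had at least 2 of Cdh5, Pecam1, Emcn and Kdr. Progenitors and differentiating myocytes were left out of that class, which can lower its shares of rule genes. The class gave a Pax7 UMI in 3.14% and 2.31% of cells and a Myod1 UMI in 8.90% and 4.75%. Its median depths were 21790 and 17470 UMIs. After thinning each cell to 5000 UMIs, Fgfr4 was detected in 76.2% of control and 47.0% of mutant progenitors, the widest difference between libraries among the 5 markers. Fgfr4, a receptor for fibroblast growth factors, had 288.8 CPM (UMIs per 1000000 UMIs of the same cells and library) in control and 121.8 CPM in mutant progenitors. Myod1, the commitment factor, had 157.7 and 89.7 CPM, Pax7 124.6 and 97.8 CPM, Msc 399.5 and 303.8 CPM, and Myf5 78.1 and 90.2 CPM. Myf5 was thus the marker that was not lower in the mutant library.

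**Figure D1:**
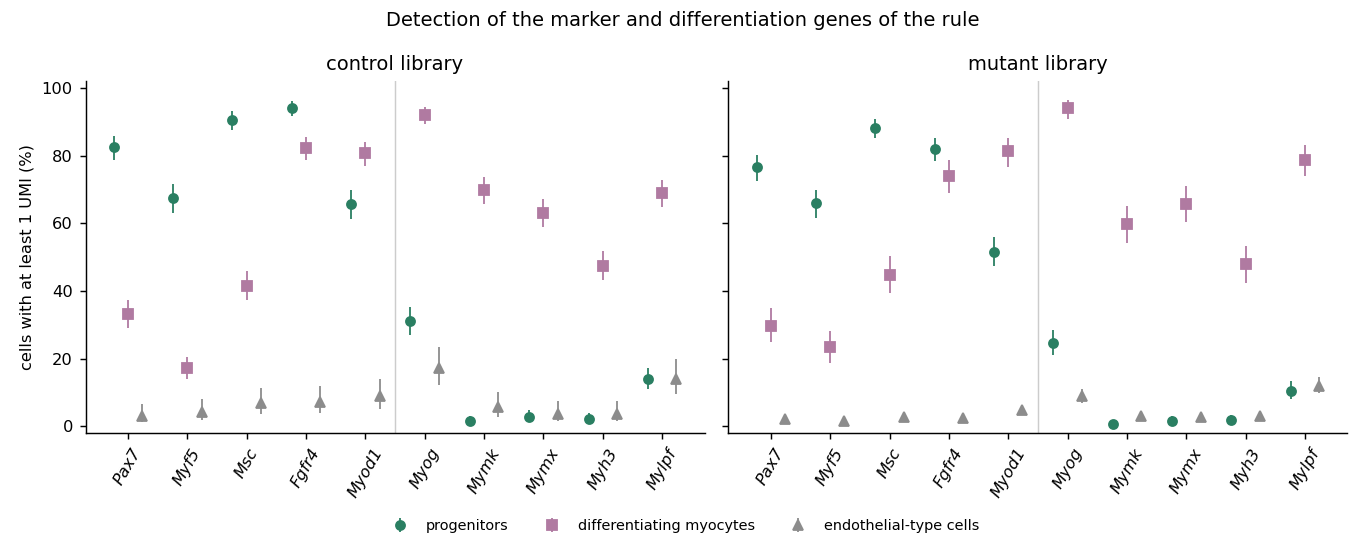
The vertical axis gives the percent of cells with at least 1 UMI of each marker (left of the grey line) and differentiation gene (right of it) in progenitors, differentiating myocytes and endothelial-type cells of each library, with 95% Clopper-Pearson intervals. Pax7, detected in 82.5% of control and 76.5% of mutant progenitors, was detected in 33.1% and 29.7% of myocytes.

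The order of the rule genes near its limits is set by the rule and is given as a description. The 60 control and 85 mutant progenitors with exactly 2 markers were shallower, with medians of 12982.5 and 9981 UMIs. They had 39.0 and 69.1 CPM of Pax7, against 132 and 101 CPM in progenitors with 3 or more markers and 5.58 and 9.63 CPM in the 404 and 289 cells just outside the rule with 1 marker. Col1a1, a collagen of connective tissue and no gene of the rule, had 900 and 101 CPM in progenitors with exactly 2 markers, 105 and 33.9 CPM in those with more, and 1056 and 272 CPM in the cells with 1 marker. Cells with exactly 2 differentiation genes, just outside the other limit, had 323 and 334 CPM of Myog and 91.0 and 58.4 CPM of Pax7. The differentiating myocytes were the 531 control and 330 mutant cells with 2 or more differentiation genes. Of the progenitors, 31.0% and 24.7% had a Myog UMI (17.3% and 8.89% of endothelial-type cells), at 62.8 and 41.5 CPM against 1923 and 1449 CPM in the myocytes.

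Against all other filtered cells, the progenitors showed a short list of higher genes and a long list of lower genes. Of 15716 genes with enough UMIs, 154 (0.98%) were at least 2-fold higher and 3026 (19.3%) at least 2-fold lower in both libraries, and the 14 rule genes are not among those counted. Kcne1l, an accessory subunit of potassium channels, stood first among genes of at least 50 CPM in the progenitors of both libraries. It had 273.7 CPM in control progenitors against 38.0 CPM in other cells, and 272.7 against 30.7 CPM in the mutant library, log2 ratios of 2.85 and 3.15. Its UMIs were found in 75.8% and 72.7% of progenitors and in 26.7% and 16.4% of other cells. Vgll3, a cofactor of TEAD transcription factors, followed with 163.5 against 26.5 CPM and 87.4 against 13.46 CPM (2.62 and 2.70).

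Secreted signals and surface proteins were among the 12 leading genes. Edn3, an endothelin ligand, had 125.5 against 25.3 CPM in the control and 102.1 against 19.6 CPM in the mutant library (2.31 and 2.38). Pdgfa, a growth factor ligand, had 199.4 against 52.2 CPM and 172.5 against 43.5 CPM (1.93 and 1.99). Fap, a cell surface protease, had 71.3 against 17.0 CPM and 78.6 against 10.4 CPM (2.07 and 2.92), and Hs6st2, which sulfates heparan chains, had log2 ratios of 1.75 and 1.91. The homeobox genes Pitx3 (1.94 and 2.23) and Barx2 (1.75 and 2.01) stood beside them. Ccne1, cyclin E1 of the entry into S phase, had 284.2 against 63.4 CPM and 134.7 against 33.0 CPM (2.16 and 2.03). The others were the centrosomal gene Cep41 (1.85 and 1.86), Sytl2 of vesicle transport (1.84 and 2.00) and Mrln, a micropeptide that restrains the calcium pump of muscle (1.81 and 2.31).

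The E-box letters CAGCTG, which read the same on both strands, stood in the 250 bases upstream of 4271 of 32851 start sites in the RefSeq table (13%). Among the genes at least 2-fold higher in the progenitors, 105 of 154 matched the table, and 32 of their 136 start sites held CAGCTG (23.5%). Of the 12 leading genes, 9 matched, and 3 of their 11 start sites held it, those of Kcne1l, Edn3 and Pitx3. These matches describe the letters and show no binding.

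Among the 15 branchiomeric regulators, 4 (26.7%) were at least 2-fold higher than in other cells in both libraries and 1 was lower, with medians of 0.48 and 0.62 against −0.26 and −0.20 over all genes tested. The shares over all genes tested were 0.98% higher and 19.3% lower. Eya4 (237.2 against 92.6 CPM in the control and 225.1 against 68.0 CPM in the mutant library, log2 ratios 1.36 and 1.73), Eya1 (1.21 and 2.07) and Six2 (1.39 and 1.54), of a network that acts on myogenic genes, were among those past the fold. Tbx1 had 28.5 against 15.7 CPM and 35.9 against 25.1 CPM (0.86 and 0.52), and 24.2% of control and 30.2% of mutant progenitors had a Tbx1 UMI. Tcf21 had ratios of opposite sign (−1.26 and 0.78), Isl1 was at −0.29 and −0.68, and Dach2 was the lower gene (−1.15 and −1.11). Tbx1, Tcf21 and Isl1 were thus not past the fold upwards.

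Of 10 genes known from somite-derived muscle precursors, Met and Lbx1 were past the fold upwards (20%, against 0.98% over all genes tested) and Hoxb6 and Hoxc6 downwards, a share close to the 19.3% over all genes tested, with medians of −0.72 and 0.07, and the rule itself holds no gene that separates branchial from somitic muscle. Met, the receptor that guides precursors out of the somite, had 53.8 against 11.8 CPM in the control and 48.3 against 12.8 CPM in the mutant library (2.19 and 1.91). Lbx1, needed for their migration, had 13.3 against 2.81 CPM and 10.8 against 3.31 CPM (2.24 and 1.71), and 24.2% and 16.7% of progenitors had an Lbx1 UMI, against 2.62% and 0.12% of endothelial-type cells. Pax3, which acts above both, had 3.75 against 7.33 CPM in the control and 11.1 against 10.2 CPM in the mutant library (−0.97 and 0.12). Of 14 Hox genes tested, which mark positions along the trunk and neck, 0 were at least 2-fold higher and 5 lower (medians −1.61 and −0.83).

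Of 14 genes of quiescent and self-renewing muscle progenitors, Chodl and Calcr were at least 2-fold higher (14.3%, against 0.98% over all genes). Cd34 and Vcam1 were lower, a smaller share than the 19.3% over all genes. Chodl, which encodes the membrane protein chondrolectin, had 71.9 against 11.5 CPM in the control and 11.9 against 2.37 CPM in the mutant library (2.65 and 2.33). Of 18 Notch pathway genes, 4 were at least 2-fold higher and 4 lower (22.2% each, against 0.98% and 19.3% over all genes), with medians of −0.52 and −1.20. The higher ones were the receptor Notch3 (107.3 against 26.8 CPM and 76.4 against 26.3 CPM, log2 ratios 2.00 and 1.54), its effectors Heyl (1.65 and 1.55) and Hey1 (1.5 and 1.37), and Lfng (1.85 and 2.30), an enzyme that modifies Notch receptors. The lower ones were the ligands Dll4, Dll3 and Jag1 and the enzyme Mfng. The receptor Notch1 (−0.74 and −1.35) and the feedback gene Nrarp (−0.50 and −1.59) were below other cells in both libraries. The share of lower genes was near that over all genes. Of the inhibitors of myogenic factors, Mstn, which encodes myostatin, was higher (1.51 and 2.35) and Twist1, Twist2 and Id4 lower.

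Against other cells, which include the myocytes, 19 of 25 sarcomere genes and 11 of 17 differentiation genes had ratios below 0 in both libraries. Fewer were past the fold. Of 25 sarcomere genes 1 was higher (Mybpc1, 1.89 and 1.16) and 15 lower, with medians of −2.37 and −3.18. Of 17 differentiation genes tested, Rapsn, which anchors acetylcholine receptors, was higher (1.37 and 2.04) and 6 were lower, among them Mef2c (−2.76 and −2.91) and Cdkn1a, an inhibitor of cyclin-dependent kinases, with 8.64 against 97.3 CPM and 23.8 against 119.9 CPM (−3.49 and −2.33). Cdkn1c, another such inhibitor, had the opposite sign, with 4078 against 2562 CPM and 3048 against 1594 CPM (0.67 and 0.94). Of 20 FOXO and PI3K feedback genes 2 were higher, Irs1 (1.63 and 1.68), the adaptor of insulin receptors, and Foxo4 (1.39 and 1.74), and 3 lower, among them Trim63 and Foxo3. The shares over all genes were 0.98% higher and 19.3% lower. Of 17 immediate early genes, against the same shares, 0 were at least 2-fold higher and 8 lower.

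**Figure D2:**
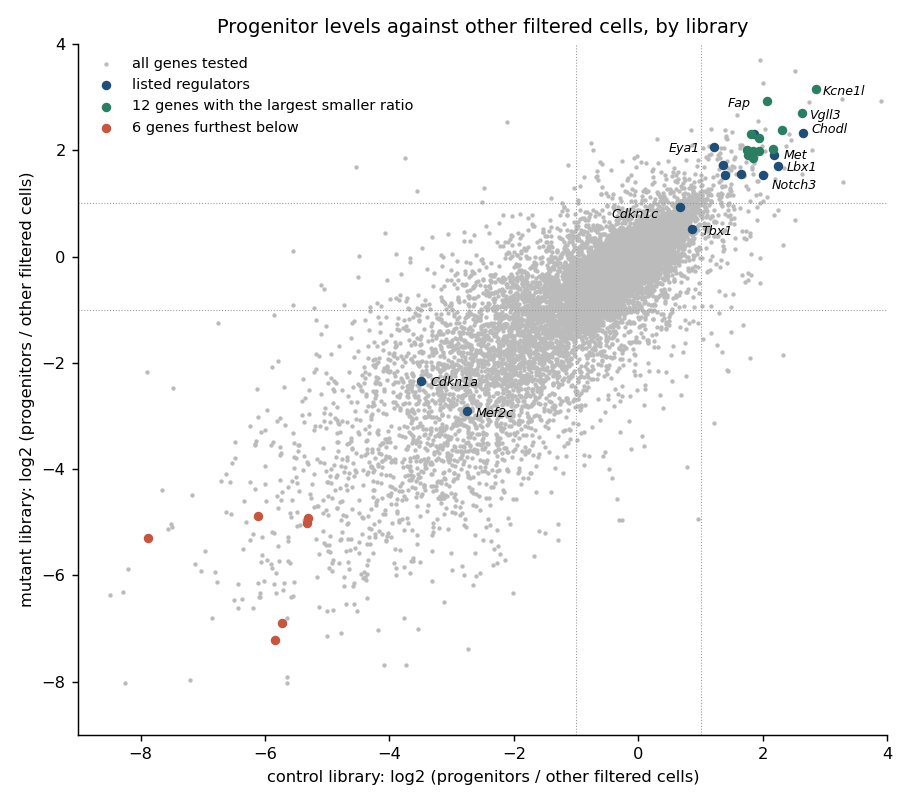
Each point is a gene, placed by its log2 ratio of progenitors over other filtered cells in the control library (horizontal) and in the mutant library (vertical), with dotted lines at 2-fold. Kcne1l lies at 2.85 and 3.15 and Cdkn1a at −3.49 and −2.33.

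Compared with the differentiating myocytes alone, the progenitors differed in several of these genes. Eya1 (1.32 and 1.31), Notch3 (1.67 and 1.00), Hey1 (1.66 and 1.20), Met (1.44 and 1.27) and Chodl (2.78 and 2.91) were higher in progenitors. The Notch ligand Dll1 (−2.25 and −2.60), Hes6 (−1.35 and −1.30), Mef2c (−3.28 and −3.51) and Cdkn1a (−4.77 and −4.15) were higher in myocytes. Actc1, the cardiac actin that embryonic skeletal muscle also uses, had 593 CPM in control progenitors and 5479 CPM in myocytes, and 221 and 5508 CPM in the mutant library.

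RNA of other cell types was present in the progenitors. The 7 endothelial markers summed to 17.7 CPM in control and 28.4 CPM in mutant progenitors, against 244.8 and 983.2 CPM in other cells, and Tek was the most abundant of them (13.9 and 13.2 CPM). The 9 mesenchyme markers summed to 1016 and 414 CPM against 3264 and 876 CPM, led by Col3a1 (379.9 and 138.1 CPM). Neuron markers summed to 82.2 and 87.3 CPM, led by Tubb3, against 508.5 and 978 CPM, and 10.4% of control and 15.7% of mutant progenitors held at least 2 of the 7. At least 5 of the 9 mesenchyme markers were found in 24.6% of control and 8.16% of mutant progenitors. The 6 neural crest and Schwann markers summed to 65.9 CPM in control progenitors, against 155 CPM in other cells, and to 66.9 CPM in mutant progenitors, about the level of the other cells (65.5 CPM), led by Erbb3. Blood markers summed to 24.1 and 7.93 CPM, with Hba-a1 and Hbb-bh1 at 0 UMIs in control and C1qa and Hba-a2 at 0 in mutant progenitors. The 6 genes furthest below other cells were the adult globins Hbb-bt and Hbb-bs and the heart genes Myl7, Myh6, Tnnc1 and Csrp3, with log2 ratios of −4.88 or lower in both libraries.

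In the mutant library, genes of the response to low oxygen and of glycolysis were at higher levels in the progenitors. Of 12516 genes tested, 1354 (10.8%) were at least 1.5-fold higher and 945 (7.55%) at least 1.5-fold lower. Of 34 targets of the hypoxia-inducible factor HIF outside glycolysis, 29 were past the fold upwards and 0 downwards, with a median log2 ratio of 1.28, against −0.01 over all genes tested. The other filtered cells had a median of 1.33 for the same genes, so the difference was not particular to the progenitors. Other cells also differed in make-up between libraries. Of filtered control and mutant cells, 6.86% and 23.5% were endothelial-type, and 19.1% and 9.46% were differentiating myocytes. Ratios in other cells carry this difference as well. Of 24 genes of glucose transport and glycolysis, 20 were past the fold upwards and 0 downwards (median 0.99, other cells 1.13).

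Car9, a carbonic anhydrase, had the largest ratio of the HIF targets. It had 1.63 CPM in control progenitors, from 20 UMIs, and 64.7 CPM in mutant progenitors, a log2 ratio of 5.31 (4.67 to 6.03), against 3.39 in other cells. Its UMIs were found in 3.54% of control and 38.9% of mutant progenitors, and in 5.76% and 9.87% of endothelial-type cells. Bnip3, a receptor for the removal of mitochondria, had 31.3 CPM in the control and 252.3 CPM in the mutant library (3.01, 2.86 to 3.17). Ddit4, an inhibitor of mTORC1, had 57.4 and 316.9 CPM (2.47), and Adm, a vasodilator peptide, had 1.30 and 22.4 CPM (4.10). Vegfa, the ligand that drives vessel growth, had 42.1 and 108.6 CPM (1.37, 1.22 to 1.52), close to its ratio in other cells (1.28). Egln3, a prolyl hydroxylase that marks HIF for destruction, had 10.9 and 68.2 CPM (2.64).

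Of the glucose genes, the transporters Slc2a1 (48.3 and 176.8 CPM, log2 ratio 1.87) and Slc2a3 (10.8 and 80.3 CPM, 2.89) and the lactate exporter Slc16a3 (28.0 and 174.0 CPM, 2.64) had larger ratios than lactate dehydrogenase Ldha (1000 and 1953 CPM, 0.97). Pdk1, which keeps pyruvate out of mitochondria, was at 1.84 and hexokinase Hk2 at 1.48. Egln1, another hydroxylase of HIF, had 43.4 and 83.8 CPM (0.95), while the subunits Hif1a and Arnt (−0.19), Vhl (0.30) and Egln2 (−0.23) were not past the fold. Hif1a had 89.6 CPM in control and 83.8 CPM in mutant progenitors (−0.10, −0.22 to 0.03), and Pik3ca 31.2 and 31.3 CPM (0.00, −0.21 to 0.21), a count per gene that does not read the mutation. Rora, Wsb1, Selenbp1, Pfkfb4 and Loxl2 were the 5 HIF targets not past the fold.

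The letters ACGTG, counted on both strands, stood in the 250 bases upstream of 5444 of 32851 start sites (16.6%). Of the 58 HIF and glycolysis genes, 51 matched the table and 33 of their 73 start sites held it (45.2%). Of the 49 that were past the fold, 43 matched and 27 of 60 start sites held it (45%), start sites that are part of the 73. The upstream stretches of Bnip3 and Car9 printed above are examples. The list was made of HIF targets and glycolysis genes, so its share is a description only. These matches, too, describe the letters and show no binding.

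Sterol synthesis, the ATF4 response, heat shock genes and immediate early genes were also higher for part of their lists. Over all genes tested, 10.8% were past the fold upwards and 7.55% downwards. Of 20 sterol and fatty acid genes, 11 were past the fold upwards and 0 downwards (median 0.71, other cells 0.54), for example Hmgcs1 of cholesterol synthesis with 92.4 and 213.5 CPM (1.21). Of 18 ATF4 and amino acid genes, 8 were higher, led by Trib3 (5.16, 3.26 to 8.24, from 2 control UMIs) and Chac1 (4.79), and the cystine transporter Slc7a11 was lower (−2.45). Of 12 heat shock genes, 4 were higher. Hspa1a, an inducible chaperone, had 19.9 and 276.3 CPM (3.80, 3.61 to 3.99), and Hspa1b 13.6 and 241.5 CPM (4.15), while the other chaperones past the fold, Hsph1 and Dnajb1, were at 0.84 and 0.79. Of 17 immediate early genes, 6 were higher and 0 lower, with a median of 0.43 in progenitors and −0.26 in other cells.

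Several regulators of muscle identity had ratios in the progenitors unlike those in other cells. Tcf15, a bHLH factor of early mesoderm, had 9.62 CPM in control and 82.3 CPM in mutant progenitors, a log2 ratio of 3.10 (2.82 to 3.38) against 1.46 (1.31 to 1.62) in other cells. A Tcf15 UMI was found in 14% of control and 57.5% of mutant progenitors, while in endothelial-type cells, which also express it, the shares were 41.4% and 30.7%. Eya1 had 93.1 and 161.2 CPM (0.79, 0.69 to 0.90) against −0.07 in other cells. Its ratio of progenitors over differentiating myocytes was nearly the same in both libraries, so its difference between libraries was about as large in the myocytes. With Dach1 (0.88), Six2 (0.71) and Six4 (0.70), Eya1 made up 4 of 15 branchiomeric regulators past the fold upwards, with 0 downwards, against 10.8% and 7.55% over all genes. Tbx1 (0.33) was not past it. Of the 9 somitic and hypaxial regulators tested, 3 were past the fold upwards and 0 downwards, Tcf15, Meox1 (0.94) and Pax3 (1.57, other cells 0.48). The other 6 had ratios below 0, and the list median was −0.12. Between female-like cells 1 of the 3, Tcf15, was past the fold, with Meox1 at 0.54 and Pax3 at 0.52.

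Of 11 inhibitors of myogenic bHLH factors, 8 were past the fold upwards and Snai2 downwards (−1.27), with a median of 0.78 in progenitors and −0.07 in other cells. The shares over all genes were 10.8% upwards and 7.55% downwards. Between female-like cells 6 of the 8 were past the fold, without Twist2 (0.20) and Snai1 (0.24). Id2, which binds the partners of the myogenic factors, had 89.1 and 229.3 CPM (1.36, 1.26 to 1.47), and Id1 167.3 and 291.6 CPM (0.80). Twist1 was at 1.5, Smad7, an inhibitor of TGF-beta signalling, at 1.21 and Mstn at 0.78. In other cells Twist1 was at −0.20 and Mstn at −0.07.

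Progenitor and satellite cell genes were lower in the mutant library for 6 of 14 and higher for 1, Sdc4. The shares over all genes were 7.55% lower and 10.8% higher. Sdc4 (1.09) was at 0.50 between female-like cells, within 1.5-fold. Itga7, the laminin receptor of muscle, had 148 UMIs in 100 control progenitors and 2 UMIs in 2 mutant progenitors (log2 ratio −6.18, −9.23 to −4.30), against −1.81 in other cells. Chodl had 71.9 and 11.9 CPM (−2.59, −2.86 to −2.34; other cells −2.28), and its UMIs were found in 37.7% of control and 9.11% of mutant progenitors (18.6% and 4.02% at 5000 UMIs per cell). Megf10, an engulfment receptor of satellite cells, was at −1.21, Vcam1 at −1.19 and Sox8 at −0.83, with −1.55, −1.0 and −1.49 in other cells. The list median was −0.41 in progenitors and −0.52 in other cells. The sixth was Cd34 (−1.85), whose ratio had the opposite sign (1.10) in other cells, which differed in make-up between libraries.

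Among imprinted growth genes, 4 of 15 were lower and 0 higher, against 7.55% and 10.8% over all genes. Dlk1, a Notch-like membrane protein of embryonic muscle, had 1014 CPM in control and 123.4 CPM in mutant progenitors (−3.04, −3.12 to −2.96), against −1.51 in other cells. Its UMIs were found in 92.9% of control and 31.7% of mutant progenitors, and 57.4% of the mutant UMIs lay in 5 cells. Without the 5 highest cells of each library the ratio was −4.18. Meg3 (442.6 and 164.8 CPM, −1.43) and Rian (−1.40), non-coding RNAs of the same imprinted region, were lower too, and Plagl1 was at −0.69. Igf2 (−0.06) and H19 (0.06) were not past the fold.

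Most differentiation genes past the fold were lower. The subunits of the acetylcholine receptor Chrna1 (−2.66), Chrnd, Chrnb1 and Chrng and the receptor kinase Musk (−1.0) were lower, and Cdkn1a (8.64 and 23.8 CPM, 1.46) and Smyd1 higher. Of 21 sarcomere genes 6 were higher and 8 lower, with a median of −0.01 that did not keep its sign under other member calls. Actc1 had 593 and 221 CPM (−1.43) and the giant spring protein Ttn was at −1.10. At least 57% of the mutant UMIs of the higher genes Myh7, Tnni1 and Tnnc1 lay in 5 cells. Of 12 FGF pathway genes 3 were lower, the feedback inhibitors Spry4 (−1.62) and Spry1 (−0.60) and the target Etv5 (−1.04), and 0 higher. Of 16 Notch genes Hey2 and Jag2 were lower (12.5%, near the share over all genes). The shares over all genes were 10.8% higher and 7.55% lower.

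FOXO and PI3K feedback genes were past the fold upwards for 6 of 19 and downwards for 1, against 10.8% and 7.55% over all genes. Foxo1, a transcription factor that the pathway inactivates, had 22.4 and 59.5 CPM (1.41, 1.21 to 1.61), against 0.81 in other cells, and Pik3r1, the regulatory subunit, was at 0.90 against −0.01. Txnip was lower (−0.90) and Irs1 (−0.47) not past the fold. Of 15 G1 cyclins and inhibitors, 4 were higher and 3 lower, against the same shares over all genes. The higher ones were Ccnd1 (0.70) and the CDK inhibitors Cdkn1a, Cdkn1b (0.71) and Cdkn2d (0.65), and the lower ones Ccne1 (−1.08), Cdk6 (−0.90) and the inhibitor Cdkn2c (−0.82). All 14 mitotic genes off the scoring lists were within 1.5-fold. Mesenchyme markers were lower for 6 of 9 genes and higher for Prrx1 (0.74) and Osr1 (0.90), with Col1a1 at 164.9 and 41.1 CPM (−2.0, other cells −2.13), and 3 of 4 blood markers tested were lower. All 6 epithelial markers tested were higher (median 1.65), with Krt8 at 22 and 449 UMIs, of which 78.2% of the mutant UMIs lay in 5 cells, as did 89.6% for Krt5 and 93.4% for Krt15. Without the 5 highest cells of each library Krt15 was at −0.63. Of cardiomyocyte markers, 5 of 7 were higher. Of the mutant UMIs of those 5, 100% (Nppa), 84.0% (Myl2), 75.2% (Myl3), 71.4% (Myl7) and 59.1% (Myh6) lay in 5 cells. Without the progenitors that held at least 2 neuron or 5 mesenchyme markers, the median was 0.29 in place of −0.01 for sarcomere genes and −0.56 in place of −0.40 for imprinted genes. The part of epithelial and heart RNA in the differences between libraries was not tested.

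**Figure D3:**
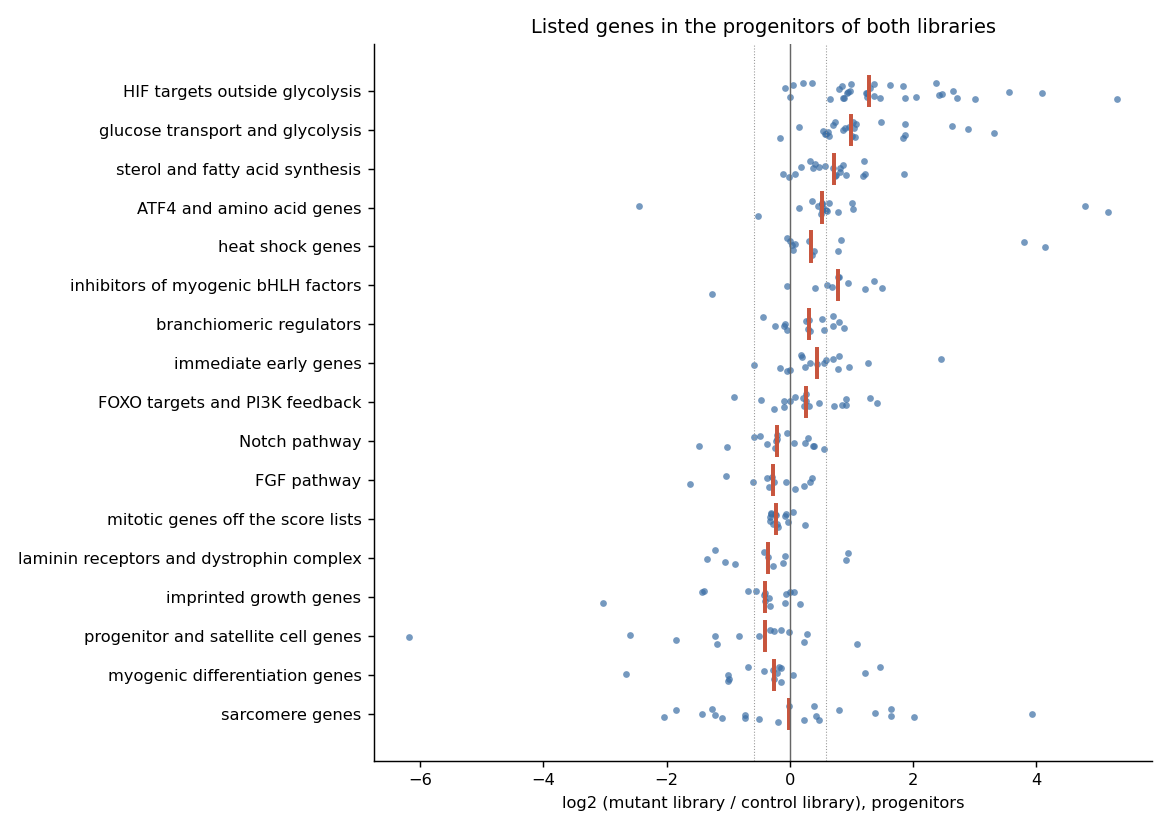
Points are the genes of each list at their log2 ratio of mutant over control progenitors (horizontal axis), the red bars are list medians and the dotted lines mark 1.5-fold. The HIF targets have a median of 1.28 and the glycolysis genes 0.99, while the mitotic genes all lie between the dotted lines.

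The 8 genes with the largest ratios upwards among those of at least 50 CPM in a library were plasma proteins of the liver, Afp, Alb, Apoa2, Serpina6, Apoa1, Ttr, Trf and Rbp4. Their levels rested on few cells. Of the 10026 UMIs of the first 6 of these genes in mutant progenitors, 97.2% lay in 5 cells. A UMI of them was found in 1.88% of control and 34.0% of mutant progenitors, and in 2.62% and 36.1% of endothelial-type cells, so these shares are at background. Without the 5 highest cells of each library the sums were 0.329 and 24.1 CPM. The 8 largest ratios downwards were in Cavin2, a coat protein of caveolae (104.5 and 6.01 CPM, −4.12, other cells −1.18), Csgalnact1, an enzyme of chondroitin sulfate (78.4 and 8.59 CPM, −3.19, other cells −0.60), Rtl3 (124.3 and 13.8 CPM, −3.17), Dlk1, Chodl, Slc35f1 (−2.53), Gm27000 (−2.29) and Rhoj, a small GTPase (59.1 and 12.2 CPM, −2.28). Rhoj was at 0.19 in other cells, so its ratio there had the opposite sign. The part of cell make-up in the ratios of other cells was not tested.

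The differences between libraries were partly different in female-like cells. With female-like progenitors alone, 799 genes were at least 1.5-fold higher in the mutant library in place of 1354, and the HIF median was 0.98 in place of 1.28. The count of 799 rests on 166 of the 527 mutant progenitors, so on fewer UMIs than that of 1354. Within the mutant library, male-like progenitors had 93.6 CPM of Car9 and female-like ones 21.0 CPM, a log2 ratio of 2.16 (1.83 to 2.50), and Bnip3 was at 298.6 and 184.2 CPM (0.70, 0.57 to 0.82). Hspa1a had the opposite order, with 117.7 CPM in male-like and 554.1 CPM in female-like cells (−2.24, −2.36 to −2.12). These classes hold unknown numbers of embryos, so sex and embryo cannot be told apart. Tcf15 was at 84.7 and 83.6 CPM, Eya1 at 160.1 and 168.2 CPM and Chodl at 11.5 and 14.3 CPM in male-like and female-like mutant progenitors, all with intervals of the ratio that include 0. For other genes the male-like over female-like ratio left out 0. Dach1 was at −0.53 (−0.74 to −0.33) and Actc1 at −1.03 (−1.17 to −0.90). Pax3 was at 1.33 (0.64 to 2.07), Id2 at 0.33 (0.20 to 0.45) and Dlk1 at 0.50 (0.30 to 0.71). The female-like ratios of mutant over control were 3.16 for Tcf15, 0.84 for Eya1, −2.34 for Chodl and −3.90 for Dlk1. Several HIF targets were closer to 0 there than with all progenitors, at 3.67 for Car9, 2.94 for Adm, 1.87 for Slc2a3, 1.74 for Ddit4 and 1.85 for Egln3. Of the 29 HIF targets past the fold upwards 24 were past it between female-like cells. The other 5 were Egln1 (0.36), Rcor2 (0.12), Gbe1 (0.33), Plod1 (0.51) and Ndrg1, whose sign was opposite (−0.43, −0.79 to −0.07). Of the 20 glucose genes 18 were past it, without Eno1 and Eno2 (0.46 in place of 3.32). For ATF4 and amino acid genes it was 4 of 8, without Asns (0.08), Atf4, Sesn2 and Ddit3, and Trib3 was at 2.58 with an interval that includes 0 (−0.22 to 6.05). For G1 cyclins and inhibitors it was 1 of 4 higher genes, Ccnd1 being at 0.40, Cdkn1b at 0.39 and Cdkn2d at 0.57. Six4 (0.48), Pax3 (0.52), Foxo3 (0.14), Prrx1 and Osr1 were also below the fold there. So were Meox1 (0.54), Sdc4 (0.50), Twist2 (0.20), Snai1 (0.24), Lss (0.54), Dhcr7 (0.46) and Ier3 (−0.21). Of the genes lower in the mutant library, Plagl1 (−0.55), Chrng (−0.41), Cdkn2c (−0.53) and Hoxb5 (−0.04) were within 1.5-fold there.

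**Figure D4:**
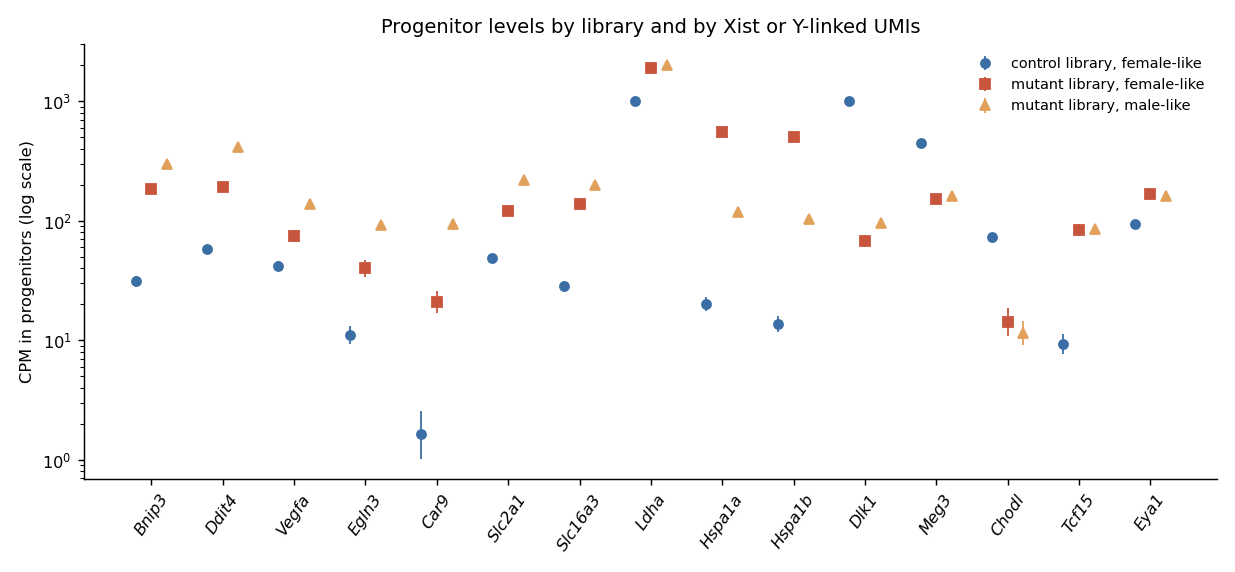
CPM in progenitors (log scale) of 15 genes in female-like cells of the control library and female-like and male-like cells of the mutant library, with 95% Poisson intervals. Car9 is at 21.0 CPM in female-like and 93.6 CPM in male-like mutant cells, while Tcf15 is at 83.6 and 84.7 CPM.

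Nearly all progenitors were called cycling. After thinning to 5000 UMIs, S or G2/M was called from expression scores in 429 of 474 control progenitors (90.5%, 87.5 to 93.0) and 433 of 498 mutant progenitors (86.9%, 83.7 to 89.8). The unthinned shares were 90.0% and 84.6%. Other filtered cells were at 48.9% and 48.0%, myocytes at 48.7% and 51.4%, and endothelial-type cells at 58.8% and 54.3%, so a call alone does not show division, and 30 control and 44 mutant progenitors lay near the border of the call. These intervals cover counting error within 1 library each, and the difference between libraries was not tested. The 14 mitotic genes that are on no scoring list were higher in progenitors than in other cells in both libraries, with medians of 0.58 and 0.52 and 0 past 2-fold.

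**Figure D5:**
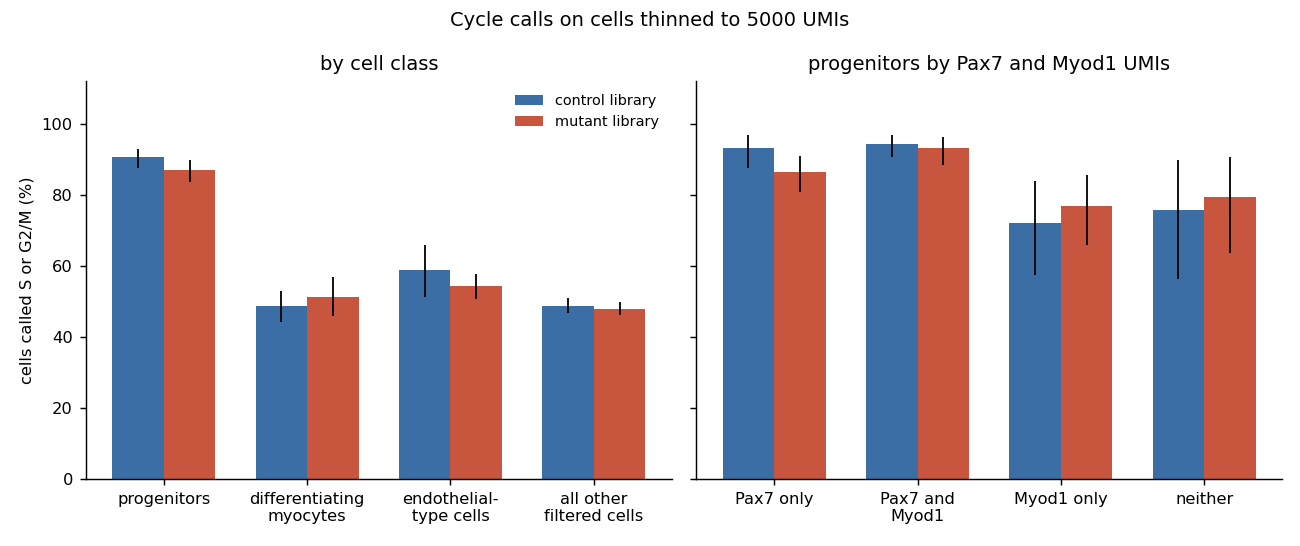
Bars give the percent of cells called S or G2/M after thinning to 5000 UMIs, by cell class (left) and by detection of Pax7 and Myod1 in the progenitors (right), with 95% Clopper-Pearson intervals. Progenitors reach 90.5% and 86.9%, and other filtered cells 48.9% and 48.0%.

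Cycling and non-cycling progenitors were then compared within each library. The non-cycling cells were 45 in the control and 65 in the mutant library, and shallower, with medians of 14918 and 15701 UMIs against 26212 and 23487 in cycling cells. Of 10498 genes off the scoring lists, 531 (5.06%) were at least 1.5-fold higher and 963 (9.17%) at least 1.5-fold lower in cycling cells in both libraries. All 14 mitotic genes were higher, which follows in part from the calls (medians 2.94 and 3.32), and 45 of 50 histone genes of replication were. Plk1, the polo kinase of mitosis, had 73.9 against 2.70 CPM (log2 ratio 4.77, 2.91 to 7.82, from 2 non-cycling UMIs) and 73.5 against 2.79 CPM (4.72, 3.16 to 7.00). Ccnb1 (3.97 and 3.61), Ccna2 (3.47 and 3.27), Kif22 and Shcbp1 were next to it, and Fbxo5, an inhibitor of the anaphase-promoting complex, had 71.8 CPM in control cycling cells and 0 UMIs in non-cycling ones. Ccne1 was higher as well (1.90 and 1.04).

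The genes furthest below in cycling cells were those of neurons. Ctnna2 (−3.40 and −3.50), Stmn2 (−4.96 and −3.06), Tubb3 (−3.69 and −3.04), Dcc (−2.86 and −4.14), Rtn1 and Tox led. Among all progenitors of a library, 5 cells held 65.1% of the control UMIs of Stmn2, 60.3% of Rtn1 and 48.8% of Tubb3, and 58.2% of the mutant UMIs of Dcc. In all, 4 of 4 neuron markers and 7 of 9 mesenchyme markers tested were past the fold downwards, against 9.17% over all genes. At least 2 neuron markers were found in 17.8% of control and 24.6% of mutant non-cycling progenitors and in 8.86% and 14.5% of cycling ones, although cycling cells were deeper. At least 5 mesenchyme markers were found in 40.0% and 13.8% of non-cycling and 23.3% and 7.85% of cycling progenitors. Without the progenitors that held these markers, 427 genes in place of 963 were lower in cycling cells. The rule genes Pax7 (0.58 and 0.16), Myf5 (0.64 and 0.12) and Myod1 (0.55 and 0.04) had larger log2 ratios of cycling over non-cycling cells in the control than in the mutant library, a description only, since they chose the cells. Notch3 was at 0.45 and 0.27, and Cdkn1c had opposite signs (0.50 and −0.33). Of 30 HIF targets tested 8 were lower in cycling cells and 0 higher, against 9.17% and 5.06% over all genes.

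The progenitors also varied along Pax7 and Myod1. Both genes were detected in 262 control and 193 mutant cells, Pax7 alone in 134 and 210, Myod1 alone in 53 and 79, and neither in 31 and 45. Cells with both were deepest, with medians of 30614 and 24992 UMIs. Cells with Pax7 alone were called cycling in 93.2% (87.5 to 96.9) and 86.5% (80.9 to 91.0), and cells with Myod1 alone in 72.0% (57.5 to 83.8) and 76.9% (66.0 to 85.7). The intervals of the control library do not overlap, those of the mutant library do.

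Of 8466 genes, 214 (2.53%) were at least 1.5-fold higher in cells with Pax7 alone and 75 (0.886%) at least 1.5-fold higher in cells with Myod1 alone, in both libraries. Frem1, an extracellular matrix protein, led the Pax7 side, with 169.1 against 28.5 CPM in the control and 86.5 against 25.5 CPM in the mutant library (2.57 and 1.76). With it stood the adhesion protein Nectin1 (1.75 and 1.34), Lrig1, which restrains growth factor receptors (1.93 and 1.19), Gxylt2, Sh3kbp1 and P3h2. Chodl had 148 against 24.7 CPM and 22.6 against 2.22 CPM (2.58 and 3.35). Notch3 had 163.5 against 66.4 CPM and 95.6 against 43.9 CPM (1.30 and 1.12), and Heyl was at 2.66 and 0.80. They were the 2 of 11 Notch genes past the fold (18.2%, against 2.53% over all genes). Eya1 (0.97 and 1.08), Igf1r (1.06 and 0.72) and Irs1 (1.5 and 0.66) were on the Pax7 side in both libraries.

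On the Myod1 side stood muscle and connective tissue genes. Actc1 had 235.6 CPM in cells with Pax7 alone and 796.4 CPM in those with Myod1 alone, and 89.9 and 500.4 CPM in the mutant library (−1.76 and −2.48). Prrx1, a factor of limb and face mesenchyme, was at −2.61 and −1.62, and Slit3, Crabp1, Akap12 and Acta2 followed. Of 10 sarcomere genes tested 4 were on that side, as were 3 of 3 neuron and 3 of 8 mesenchyme markers. The share over all genes was 0.886%. Rbm24, a splicing factor of muscle, was at −1.37 and −0.98. Without the progenitors that held at least 2 neuron or 5 mesenchyme markers, 34 genes in place of 75 were on the Myod1 side and 318 in place of 214 on the Pax7 side. Among non-cycling progenitors alone 15 genes were past the fold on the Pax7 side and 16 on the Myod1 side, and Notch3 in the mutant library was at −0.06.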

How the data were processed

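Single-cell RNA sequencing was measured in 2 libraries of sorted eYFP+ cells. The authors aligned reads to mm10 (GRCm38) with Cell Ranger 7.1.0 from 5′ libraries and deposited UMI counts per gene and cell, without normalization. Whether intronic reads were counted and the annotation release are not given in the sources used here. The filter on cells was the study's, over 2000 and under 9000 genes with mitochondrial UMIs below 10%, and counts of each class were summed per library and scaled to CPM with Python 3.11.15 and scipy 1.17.1.

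Since each genotype is 1 library, no test was run. Intervals, at 95%, were exact Poisson for CPM, conditional binomial for a ratio and Clopper-Pearson for a share of cells. A gene was past the fold at 2-fold (against other cells) or 1.5-fold (all other comparisons), in both libraries where both were compared, with at least 50 UMIs. Cells were thinned to 5000 UMIs for cycle calls from S and G2/M scores (scanpy 1.11.5, 43 and 54 genes). Shares of cells with a UMI are unthinned unless stated.

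Named genes are members of 30 fixed lists (401 genes), or the genes with the most extreme ratios among those of at least 50 CPM: 12 and 6 against other cells, 8 and 8 between libraries, 6 and 6 within the progenitors. The members and lists were chosen with earlier results of these data known. Results of some genes are not reported here. The liver genes were added after their values were seen. The ratio computation was tested on simulated data. Doublets were scored with Scrublet, whose own threshold called 0 and 1 cells and so did not work, and stayed in the main values. Promoters came from RefSeq (GRCm38.p6). Scaling by edgeR 4.0.16 TMM factors shifted log2 ratios between libraries by −0.003, and scaling by the median ratio by 0.02.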

Additional observations from a re-analysis of the deposited data

Results flagged for a closer look

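In 5 genes of the fixed lists the difference within the progenitors was at least 1.5-fold in both libraries with opposite signs, and the counting intervals of both ratios leave out 0. Genes below that fold with opposite signs are not listed here. The difference between libraries was not tested. Zic1 was higher in cycling than in non-cycling progenitors of the control library, by a log2 ratio of 2.55 (0.03 to 7.87, from 1 non-cycling UMI), and lower in the mutant library (−2.52), where 50% of its UMIs lay in 5 cells. Asns, asparagine synthetase, was at 0.77 in the control and −0.70 in the mutant library. The immediate early genes Fosb (−2.03 and 0.71) and Jun (−1.0 and 0.59) were lower in cycling progenitors of the control library and higher in those of the mutant library. The non-cycling cells behind these ratios were 45 in the control and 65 in the mutant library. Fabp7, a fatty acid binding protein of glia, was at −4.13 in the control and 1.5 in the mutant library in cells with Pax7 alone against cells with Myod1 alone, and 153 of its 201 control UMIs lay in 1 cell.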

How the results depend on the processing

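Of 86 results recomputed under up to 18 alternatives, 544 values were the same, 243 moved by more than their counting interval or by over 1.5 times, and 6 changed sign. The cause of these changes was not tested. With at least 3 markers required, progenitors were 15.1% and 12.7% of cells, 94.7% of control progenitors were cycling, 418 genes were lower in cycling cells and Dlk1 in cycling over non-cycling control cells was at 0.34, against −0.74. With members called on thinned cells the shares were 19% and 13%, the imprinted median −0.27, 548 genes were lower in cycling cells and Dlk1 was at 0.092. With no differentiation and no other-lineage gene allowed the shares were 7.40% and 7.85% and the sarcomere median between libraries −0.77. With mitochondrial UMIs under 5% the control share was 15.8%, and without high doublet scores the sarcomere median was −0.65. As means over cells, the mutant branchiomeric median against other cells was 0.81, the mutant sarcomere median −2.72 and the HIF median 1.57.

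Between female-like cells (166 in the mutant library), 799 genes were higher in the mutant library and the medians were 0.98 (HIF), 0.91 (glycolysis), −0.72 (sarcomere), −0.28 (imprinted) and 0.50 (sterol). Over the genes tested with all progenitors, the female-like medians were 0.90 for glycolysis and −0.52 for sarcomere genes. Between non-cycling progenitors, 570 genes were higher and the medians were 1.83 (HIF), 1.70 (glycolysis), 0.65 (sarcomere) and 0.11 (sterol). With at least 1 UMI in place of 50, 3525 genes were higher and 2395 lower, and with at least 200 UMIs 599 and 511. Calling cycling from 2 of 6 cycle genes gave 79.3% and 77.9%, with 322 genes above and 304 below. Pax7 and Myod1 read from thinned cells gave 506 genes on the Pax7 side and 31 on the Myod1 side, and non-cycling cells alone 15 and 16, with Notch3 in the mutant library at −0.064 and Hes6 in the control library at 0.29, against −0.94. Chosen after seeing the data, leaving out progenitors with at least 2 neuron or 5 mesenchyme markers put the sarcomere median at 0.29, the imprinted median at −0.56, the control cycling share at 93.8%, the genes lower in cycling cells at 427, the genes on the Myod1 side at 34, and Dlk1 in cycling cells at 0.73 and 1.92, against −0.74 and −0.97. Male-like mutant against all control progenitors, also added later, gave 1.5 (HIF) and −0.69 (sarcomere). No paired analysis was possible because each genotype is 1 library. With 1 library per genotype, no value here measures the spread between embryos, and a gene at few UMIs is limited by depth.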

Other observations

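Embryonic globins gave 1.63 CPM in control and 23.4 CPM in mutant progenitors. In the mutant library their UMIs were spread over 205 progenitors, with 7.86% in the 5 highest cells. These were 38.9% of mutant progenitors, the same share as in endothelial-type cells (38.9%) and close to that in other cells (39.1%), so the share is at background.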
